A study of Mus musculus with 12 samples.

Results

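Rmst, Malat1, Neat1, Miat and Snhg11 are RNAs that are thought to act without being translated, and they were followed here in single cells of the mouse striatum. The 5 genes were taken by name from a table of 31053 gene symbols, and they had been selected with their levels by age and by cell class in view. Their differences between ages and between cell classes are therefore given as a description, without a test.

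Long noncoding RNAs are transcribed and processed much like messenger RNAs, but many of them stay in the nucleus. Malat1 is among the most abundant nuclear RNAs and gathers at nuclear speckles, where splicing factors are stored. Neat1 is the scaffold of paraspeckles, nuclear bodies that hold RNA-binding proteins such as Sfpq and Nono. Rmst is a neural RNA known to bind the transcription factor Sox2 at neurogenic genes, and Miat, also called Gomafu, is a nuclear RNA of neural cells that binds splicing factors. Snhg11 is a host gene of small nucleolar RNAs and is known mainly from neurons.

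The cells came from wild type mice, whose strain the labels call mixed, whereas the methods of the study name C57BL/6Jax for brain tissue. Astrocytes were enriched from striatum on magnetic columns through their surface protein ACSA2 and profiled in droplets, where each captured RNA molecule receives a barcode of its cell and a tag of its own, the UMI. The libraries formed a postnatal group (n = 2) and a group at the age of 3 months (3m, n = 2), and the comparison sets young against adult astrocytes. The labels disagreed on whether each postnatal library was from day 3 or day 7, so both stayed in 1 group, although the study describes its postnatal striatum as day 3. According to the methods of the study, tissue of several mice was pooled for a preparation, so each library stands for a pool and the spread between libraries may be partly technical.

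Depth and identity of the libraries bear on every value below. Totals ran from 7185335 to 11501049 UMIs per library, and 3163 of 4245 barcodes passed the filters on mitochondrial UMIs and detected genes. Cells were put into classes by marker genes that included none of the 5 RNAs, and a class is called "-like" because it rests on markers alone. Astroglia-like cells numbered 390 and 555 in postnatal replicates 1 and 2 and 315 and 307 in 3m replicates 1 and 2, and all 10 astroglial markers were detected in each of these sums. Oligodendrocyte-like cells made up 580 of the 1120 cells of 3m replicate 1 and 303 of the 764 cells of 3m replicate 2, against 8 and 0 cells in the postnatal libraries. The postnatal libraries differed from each other more than the 3m libraries did (chi-square per degree of freedom across genes of the astroglia-like sums, 27.2 against 2.86, where about 1 is sampling noise). This measure also rises with depth. The postnatal sums held 4099988 and 8604384 UMIs against 2331451 and 2622887 at 3m, so part of the contrast may be one of depth. The 4 Y-linked genes Ddx3y, Uty, Eif2s3y and Kdm5d together had 826 UMIs in postnatal replicate 2 but 2 or 3 UMIs in each of the other libraries, while Xist, the RNA of the inactive X chromosome, was present in all 4 libraries, so the mix of sexes differed between libraries and its part in the results was not tested. Postnatal replicate 2 and 3m replicate 2 shared 95 cell barcodes, and over all library pairs 50 cells that passed the filters were the shallower one of such a pair. Without these cells no log2 fold change of the 5 RNAs between ages changed sign.

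All of the 5 RNAs but Snhg11 are annotated as long intergenic noncoding RNAs in GENCODE M21 (mouse build GRCm38, also called mm10). Malat1 lies on chromosome 19 at 5795690 to 5802672 and Neat1 at 5824708 to 5845478, both on the minus strand and 22.04 kb apart. Rmst spans 94.1 kb on the minus strand of chromosome 10 (92071037 to 92165170), Miat lies on the minus strand of chromosome 5 (112213228 to 112229395), and Snhg11 lies on the plus strand of chromosome 2 (158375638 to 158386145), where the annotation calls it protein coding. The introns of Rmst hold 2 microRNA genes, Mir135a-2 and Mir1251, neither of which has a row in the count table. Their mature sequences in RefSeq (GRCm38.p6) are shown because they are made from the same locus, with the seed (bases 2 to 8) in capitals, and no seed is shared among them.

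miR-135a-5p: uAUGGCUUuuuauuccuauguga
miR-135a-2-3p: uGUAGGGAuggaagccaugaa
miR-1251-5p: aCUCUAGCugccaaaggcgcu
miR-1251-3p: cGCUUUGCucagccaguguag

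The assay primes on runs of A and reads near the 3′ end of an RNA, so the ends of these transcripts bear on what a UMI of each gene stands for. The last 30 bases of annotated transcripts are shown for that reason, with the polyadenylation signal AATAAA in capitals where it is present. The signal lies in the last 30 bases of 27.1% of the 9101 annotated lincRNA transcripts (searched on the transcribed strand).

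Malat1 (chr19:5795690-5795719, minus strand): ttttatgaAATAAAaactaaatatctctca
Neat1, short transcript (chr19:5842307-5842336, minus strand): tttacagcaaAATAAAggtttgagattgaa
Neat1, long transcript (chr19:5824708-5824737, minus strand): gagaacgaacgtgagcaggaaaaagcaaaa
Rmst, 1 of 14 transcripts (chr10:92081746-92081775, minus strand): ctatacaAATAAAaatatagaaaagcttgc
Miat (chr5:112213228-112213257, minus strand): atttcaatattaaaaccgacacacactgga

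The Rmst end shown lies inside the gene, and 4 of its 14 annotated transcripts hold the signal in this window. Neat1 has a short transcript of 3004 bases that ends behind the signal and a long one of 20771 bases whose window does not hold it. Both count to 1 row of the table, so a Neat1 UMI does not tell which form it came from. Malat1 is known to be cut by RNase P at its 3′ end, which leaves a tail of A that is encoded in the genome. A script found a single run of at least 10 A in this Malat1 transcript, shown here in capitals with its surroundings (chr19:5795979-5796008, minus strand), and no run of this length in any transcript of the other 4 genes.

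Malat1, positions 6665 to 6694 of 6983: cctagctttAAAAAAAAAAAAgcaaaagac

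In astroglia-like cells Rmst differed more between ages than the other 4 RNAs did. There postnatal replicate 1 had 11.95 counts per 1000000 UMIs (CPM) and postnatal replicate 2 had 8.25 CPM, against 163 and 208 CPM in 3m replicates 1 and 2 (group means 10.1 ± 2.62 and 186 ± 31.9, SD, n = 2). Both 3m libraries were far above both postnatal libraries, and the values within an age lay close together. The log2 fold change of 3m over postnatal was 4.51 (SE 0.26, n = 2 libraries per age). Rmst UMIs were found in 10.3% of astroglia-like cells in each postnatal library and in 52.7% and 61.6% of those at 3m. When each cell was thinned to 2000 UMIs to remove differences in depth, leaving out shallower cells, Rmst was detected in 3.42% and 1.74% of postnatal cells and in 20.8% and 33.2% of 3m cells.

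Among the named classes with at least 20 cells at 3m, Rmst was found almost entirely in astroglia-like cells. Cells that no class took in also held it at 3m, with 57.3 CPM in 3m replicate 1 (22 UMIs in 8 of 36 cells) and 28.4 CPM in 3m replicate 2 (6 UMIs in 1 of 34 cells). At 3m, oligodendrocyte-like cells of the same libraries had 1.55 and 0.919 CPM, with a UMI in 1.21% and 1.32% of cells at median depths above those of the astroglia-like cells. No Rmst UMI was found in oligodendrocyte precursor-like, endothelial-like or microglia-like sums of at least 20 cells, which allows up to 4.42 CPM in the precursor-like cells of postnatal replicate 1 and up to 10.0 CPM in those of 3m replicate 1. In mural-like cells, which wrap blood vessels, 3 UMIs were found in 1 cell of postnatal replicate 2, which gave 7.22 CPM beside 8.25 CPM in astroglia-like cells, and none in the other 3 libraries. A count of 0 allowed up to 18.8 CPM in mural-like cells of postnatal replicate 1 and up to 24.4 CPM in microglia-like cells of 3m replicate 1, so a restriction to astroglia-like cells is not shown for the postnatal libraries. The log2 fold change of oligodendrocyte-like over astroglia-like cells at 3m was −7.09 (SE 0.20, 2 libraries), and within single libraries, with no test, it was −6.72 in 3m replicate 1 and −7.82 in 3m replicate 2. In sums over whole libraries Rmst was 7.72 and 6.65 CPM in the postnatal and 42.8 and 70.9 CPM in the 3m replicates, a smaller step than within astroglia-like cells (log2 fold change 3.14, SE 0.30). In such sums fewer cells of a class and less RNA per cell cannot be told apart.

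Malat1 was by far the most abundant of the 5 RNAs. It took up 67057 and 41025 CPM in astroglia-like cells of the postnatal replicates, against 130089 and 131014 CPM in the 3m replicates (group means 54041 ± 18407 and 130551 ± 654, SD, n = 2). The 3m libraries differed by less than 1% and lay above both postnatal libraries, which differed by more than 1.5 times between themselves. The log2 fold change was 1.54 (SE 0.64, n = 2 libraries per age), and it was 1.95 without postnatal replicate 1 and 1.20 without postnatal replicate 2. At 3m, oligodendrocyte-like cells had 74232 and 64622 CPM, below the astroglia-like cells of the same library (log2 fold change −0.88, SE 0.17). Oligodendrocyte precursor-like cells had 37562 CPM in postnatal replicate 1 and 96203 CPM in 3m replicate 1. Endothelial-like and microglia-like cells at 3m lay between 23968 and 35514 CPM.

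Within astroglia-like cells the share of Malat1 varied widely. The median cell gave 4.38% and 4.37% of its UMIs to Malat1 in the postnatal replicates and 11.3% and 11.04% in the 3m replicates. Cells with under 0.5% Malat1, a limit chosen after the distribution had been seen, numbered 126 of 390 and 34 of 555 in the postnatal replicates and 37 of 315 and 71 of 307 at 3m, which is 32.3%, 6.13%, 11.7% and 23.1%. In the same order, 13, 31, 10 and 6 cells lay between 0.3% and 1%, so that the low cells stood apart in postnatal replicate 1 and at 3m but not in postnatal replicate 2. Among oligodendrocyte-like cells at 3m 1.21% and 1.32% were below 0.5%.

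**Figure D1:**
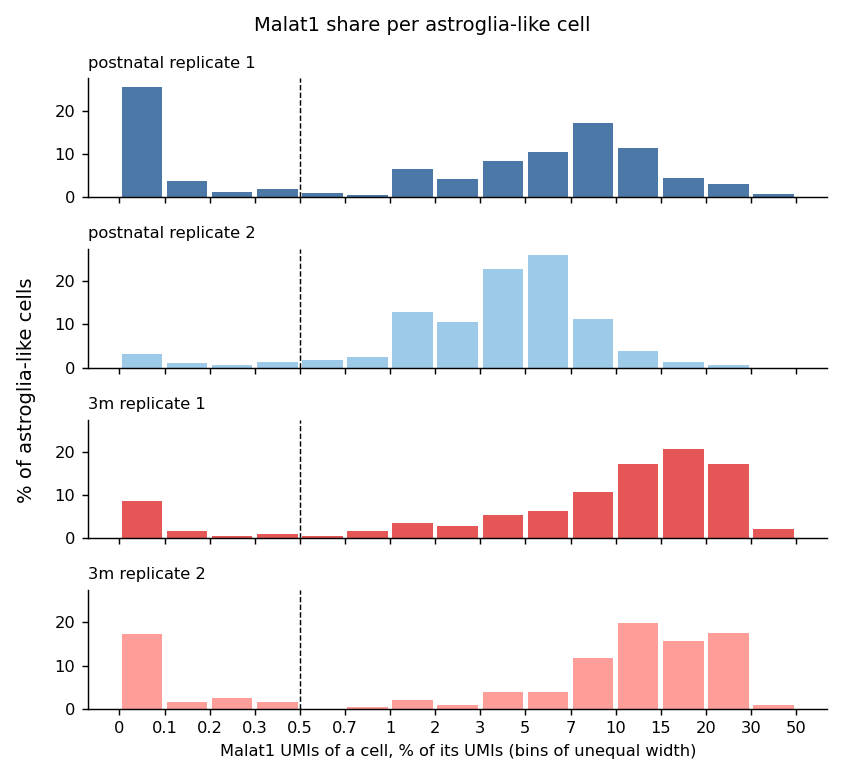
Share of a cell's UMIs that were Malat1, as the percentage of astroglia-like cells (y axis) in bins of unequal width (x axis, % of UMIs), with 1 panel per library and a dashed line at 0.5%. In postnatal replicate 1 and both 3m replicates cells near 0 stand apart from the main group, in postnatal replicate 2 the counts run on without a gap, and the main group sits at higher shares at 3m than in the postnatal libraries.

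The Malat1-poor cells were shallow. Their median was 1985 and 2578 UMIs in the postnatal replicates and 1699 and 1932 UMIs at 3m, against 12376, 12961, 6682 and 9715 UMIs in the other astroglia-like cells. Kcnq1ot1, another nuclear long noncoding RNA, had 0 UMIs in the Malat1-poor astroglia-like cells of all 4 libraries, which allows up to 8.97, 29.4, 34.9 and 18.3 CPM, and between 68.7 and 106 CPM in the others. Rmst had 1, 0, 1 and 0 UMIs in the Malat1-poor cells, and Neat1 had 1, 0, 1 and 2. Meg3, a further nuclear RNA, was lower in the Malat1-poor cells of postnatal replicates 1 and 2 (8.97 and 9.82 CPM against 42.0 and 121 CPM) and had 0 UMIs against 34.3 CPM in 3m replicate 1, but was at 12.2 against 12.6 CPM in 3m replicate 2. Miat had 1, 1, 1 and 0 UMIs in the Malat1-poor cells, and its level there was 2.99, 9.82, 11.6 and 0 CPM against 24.2, 12.7, 16.0 and 9.35 CPM in the other cells. Leaving these cells out changed the level of the 4 less abundant RNAs little, with 3m Rmst at 169 and 222 CPM and 3m Neat1 at 140.3 and 123 CPM, and the log2 fold changes between ages stayed at 4.54 for Rmst, 1.54 for Malat1 and 2.30 for Neat1. Barcodes removed by the filters were more often Malat1-poor than cells kept, at 79.2%, 44.4%, 48.6% and 52.1% against 33.0%, 13.3%, 7.05% and 13.1%.

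**Figure D2:**
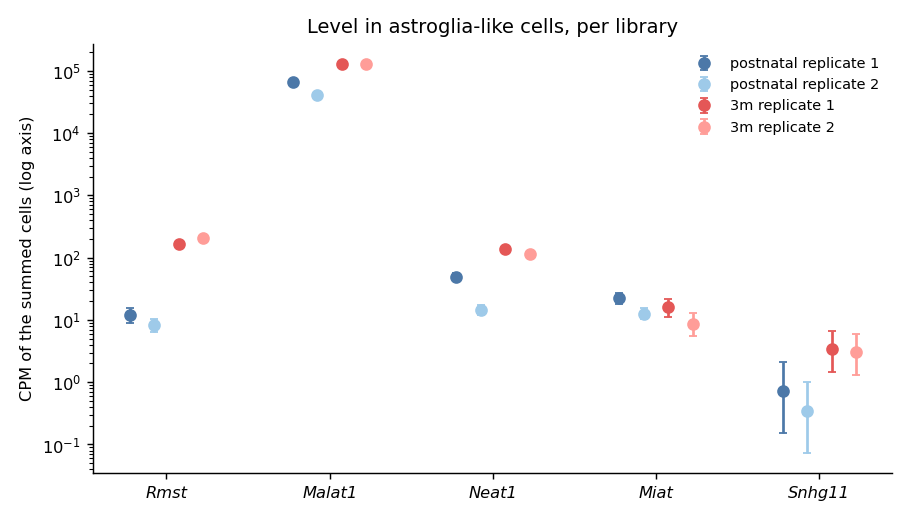
Level of the 5 RNAs in astroglia-like cells (CPM of the summed cells, log axis), 1 point per library with its 95% Poisson interval, which covers counting error only. The 3m points lie above both postnatal points for Rmst, Malat1, Neat1 and Snhg11, and the ages overlap for Miat.

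Neat1 in astroglia-like cells was 48.8 and 14.5 CPM in the postnatal replicates and 135.5 and 116 CPM in the 3m replicates (group means 31.7 ± 24.2 and 126 ± 13.6, SD, n = 2). The ages did not overlap, but the postnatal libraries differed by more than 3 times, and the log2 fold change of 2.31 (SE 0.52, n = 2 libraries per age) became 3.40 without postnatal replicate 1 and 1.60 without postnatal replicate 2. After thinning, Neat1 was detected in 11.2% and 3.67% of postnatal cells and in 21.2% and 16.0% of 3m cells. Oligodendrocyte-like cells at 3m had much more, with 895 and 643 CPM and a UMI in 91.9% and 91.4% of cells, so the order of the classes was the reverse of that for Malat1 (log2 fold change of oligodendrocyte-like over astroglia-like cells 2.63, SE 0.13). Microglia-like cells of 3m replicate 1 reached 610 CPM from 75 UMIs, of which 64 came from 5 of the 24 cells, and the mean of the cells' own values was 359 CPM. Endothelial-like and mural-like cells at 3m lay between 57.7 and 86.5 CPM, and oligodendrocyte precursor-like cells had 2 UMIs in postnatal replicate 1 (2.95 CPM) and 4 in 3m replicate 1 (13.4 CPM). Oligodendrocyte precursor-like and oligodendrocyte-like cells of 3m replicate 1 thus differed widely in Neat1 although both belong to the oligodendrocyte lineage.

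Because Neat1 was so abundant in oligodendrocyte-like cells, its level in astroglia-like cells was set beside RNA of oligodendrocyte markers found there. All 9 oligodendrocyte markers were detected in the astroglia-like sums at 3m, where they summed to 623 and 348 CPM, against 16.1 and 14.9 CPM in the postnatal sums, in which Mog, Mobp and Opalin or Mog alone were at 0. As a share of the oligodendrocyte-like level, the markers lay between 0.468% (Mal) and 3.55% (Mbp) in 3m replicate 1 and between 0.261% (Opalin) and 2.45% (Mbp) in 3m replicate 2. Neat1 stood at 15.1% and 18.1%, above every marker in both libraries. The markers had served to keep cells out of the astroglia-like class and Neat1 had not, so their shares were held down by the gate, and the part of oligodendrocyte RNA in the Neat1 level was not tested. In astroglia-like cells with no oligodendrocyte marker UMI the log2 fold change of Neat1 between ages was 1.90. That choice kept 344 of 390 and 447 of 555 postnatal cells but only 95 of 315 and 64 of 307 cells at 3m. Of the 3m cells kept, 13 and 24 had under 2000 UMIs, so the value rests on few and often shallow cells.

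**Figure D3:**
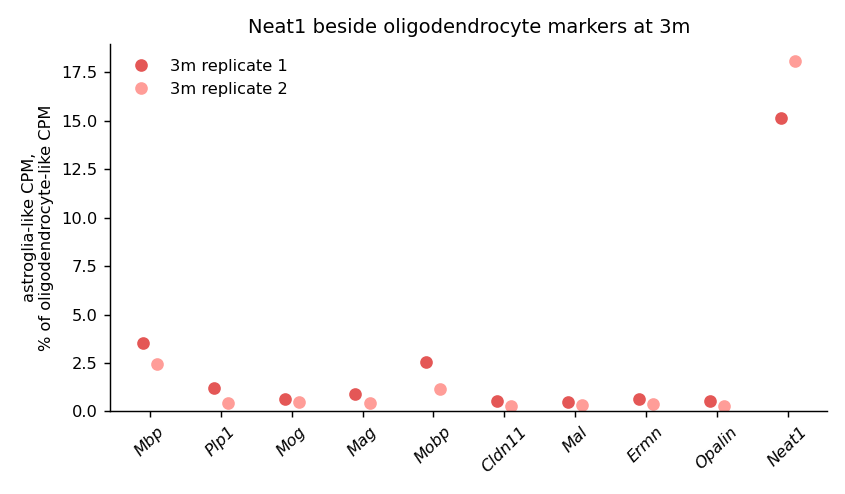
Level in astroglia-like cells as a percentage of the level in oligodendrocyte-like cells of the same 3m library (y axis) for the 9 oligodendrocyte markers and Neat1 (x axis), 1 point per library. Neat1 lies at 15.1% and 18.1%, and the markers lie at or below 3.55%.

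In whole-library sums Neat1 went from 35.9 and 12.6 CPM to 590.2 and 406 CPM, the steepest step of the 5 RNAs there (log2 fold change 4.54, SE 0.52). Without postnatal replicate 1 it was 5.42, and without postnatal replicate 2 it was 3.95. Oligodendrocyte-like cells were almost lacking in the postnatal libraries, so the number of these cells and the level per cell cannot be told apart in that value.

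The CPM of Miat in astroglia-like cells did not differ between ages beyond the spread of the libraries. The share of these cells with a Miat UMI was lower in both 3m libraries than in both postnatal ones, with and without thinning. Miat was at 22.4 and 12.7 CPM in the postnatal replicates and 15.9 and 8.77 CPM in the 3m replicates (group means 17.6 ± 6.91 and 12.3 ± 5.02, SD, n = 2), and the ages overlapped. The log2 fold change was −0.22 (SE 0.42, n = 2 libraries per age), and its sign turned when single libraries were left out, with 0.23 without postnatal replicate 1 and 0.16 without 3m replicate 2. In these cells 17.2% and 15.1% of postnatal and 6.03% and 6.51% of 3m cells had a Miat UMI, and after thinning the shares were 4.66% and 3.47% against 3.18% and 1.15%. Among the named classes with at least 20 cells Miat was highest in oligodendrocyte precursor-like cells, at 42.7 CPM in postnatal replicate 1 (95% Poisson interval 28.6 to 61.4) and 23.4 CPM in 3m replicate 1 (9.41 to 48.2). The latter interval includes the 15.9 CPM of astroglia-like cells. The replicate 2 libraries had too few precursor-like cells, with 1 Miat UMI in 6 cells in postnatal replicate 2 and 0 in 7 cells in 3m replicate 2. Cells that no class took in had 31.3 CPM in 3m replicate 1 (12 UMIs in 3 cells) and 99.5 CPM in 3m replicate 2 (21 UMIs in 2 cells). In oligodendrocyte-like cells it was nearly absent, with 5 UMIs in 580 cells of 3m replicate 1 (0.860 CPM) and none in 303 cells of 3m replicate 2, which allows up to 0.689 CPM. In whole-library sums Miat was lower at 3m, with 18.6 and 10.8 CPM against 6.52 and 5.78 CPM (log2 fold change −1.09, SE 0.31). Without postnatal replicate 1 it was −0.69, and without postnatal replicate 2 it was −1.43.

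Astroglia-like cells with a Miat UMI held neuron marker UMIs more often than those without in each library. Of the postnatal astroglia-like cells with a Miat UMI, 25.4% and 29.8% also held a neuron marker UMI, against 13.9% and 19.96% of those without, and at 3m 6 of 19 and 6 of 20 cells with a Miat UMI did, against 11.8% and 10.8% of those without. The cells with a Miat UMI were also deeper, with medians of 13989, 15257, 9314 and 12376 UMIs against 8051, 11978, 5932 and 7944. The part of either in the level of Miat was not tested. Without the cells that held a neuron marker UMI, the log2 fold change between ages was −0.83.

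Snhg11 was close to the detection limit in astroglia-like cells. It had 3 UMIs in each postnatal replicate (0.732 and 0.349 CPM) and 8 UMIs in each 3m replicate (3.43 and 3.05 CPM), and the 16 UMIs at 3m came from 5 cells. The pooled ratio of 3m to postnatal CPM was 6.84 (95% counting interval 2.54 to 21.3), and the fitted log2 fold change was 2.95 (SE 0.61). After thinning, Snhg11 was detected in 0 of 322 and 0 of 518 postnatal cells, which allows shares of up to 0.932% and 0.579%, and in 2 of 283 and 2 of 262 cells at 3m. The share of 3m astroglia-like cells with a UMI was 0.952% and 0.651% at median depths of 6027 and 8249 UMIs, beside 2.93% and 1.32% of oligodendrocyte-like cells at 9062 and 13169 UMIs. After thinning, oligodendrocyte-like cells had 1.05% and 0.342%, above the astroglia-like share in 3m replicate 1 and below it in 3m replicate 2, so no order of the classes is read from Snhg11. Oligodendrocyte precursor-like cells had more. They reached 8.84 CPM in postnatal replicate 1 (95% Poisson interval 3.25 to 19.2) and 53.5 CPM in 3m replicate 1 (30.6 to 86.9), where 24.4% of the 45 cells had a UMI. Neuron markers were present in these cells as well, with a summed level of 340 CPM in postnatal replicate 1 and 378 CPM in 3m replicate 1, and all 11 precursor-like cells with Snhg11 in 3m replicate 1 held a neuron marker UMI, as did 88.2% of the cells without it. The part of neuronal RNA in the level of Snhg11 was not tested.

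**Figure D4:**
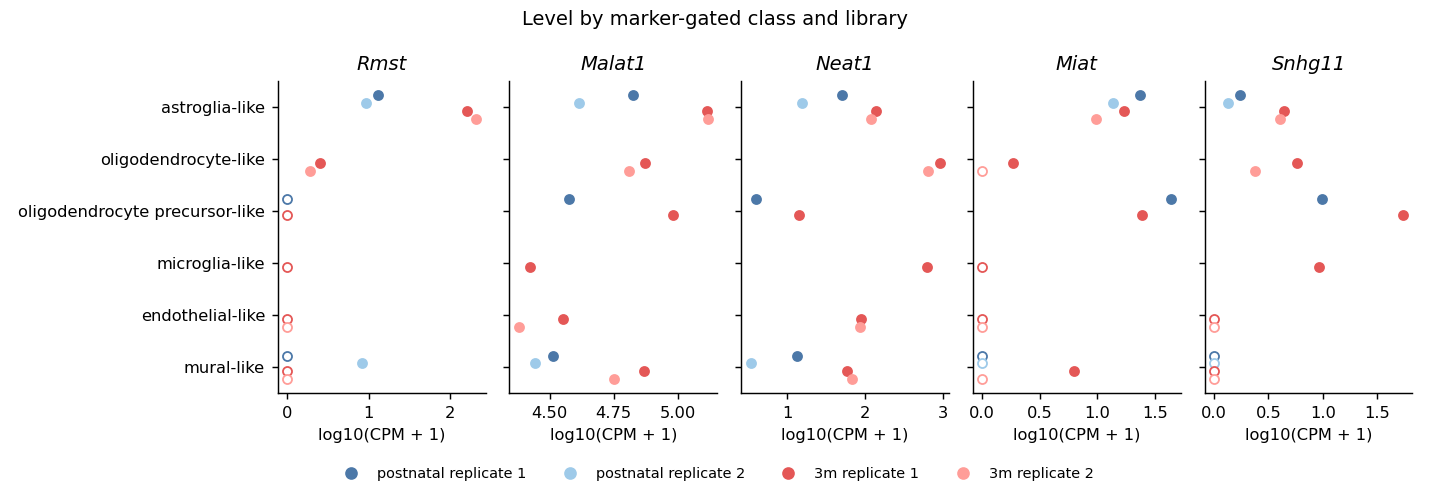
Level of each RNA, as log10(CPM + 1), by marker-gated class and library, for classes with at least 20 cells. Open points mark sums with no UMI of the gene. Rmst is highest in astroglia-like cells, Neat1 in oligodendrocyte-like and microglia-like cells, and Miat and Snhg11 in oligodendrocyte precursor-like cells among the named classes, and the x axes differ between panels.

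Set side by side at 3m, the order of the classes differed between Rmst, Malat1 and Neat1. Rmst was highest in astroglia-like cells, low in oligodendrocyte-like cells and at 0 UMIs in the other named classes with at least 20 cells. Classes with fewer cells are not shown by class. For Malat1 the astroglia-like cells led, followed by precursor-like, then oligodendrocyte-like and mural-like cells, whose ranges of 64622 to 74232 CPM and 56456 to 74098 CPM overlapped, and then endothelial-like and microglia-like cells. For Neat1 the oligodendrocyte-like cells led, and the only microglia-like sum, at 610 CPM, rested mainly on 5 cells, so its place in the order is uncertain. Of the 5 RNAs, 4 had both 3m astroglia-like sums above both postnatal sums, as did 27.2% of the 11832 genes tested, and 0 had both below, as did 49.5%. Between the classes at 3m, 3 of the 5 lay lower in both oligodendrocyte-like sums (42.6% of 11665 genes tested) and 1 higher in both (40.8%). In whole libraries 4 of 5 were higher in both 3m sums (33.4% of 14288 genes) and 1 was lower in both (44.5%). The members had been picked on these values, so nothing is read from the counts.

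**Figure D5:**
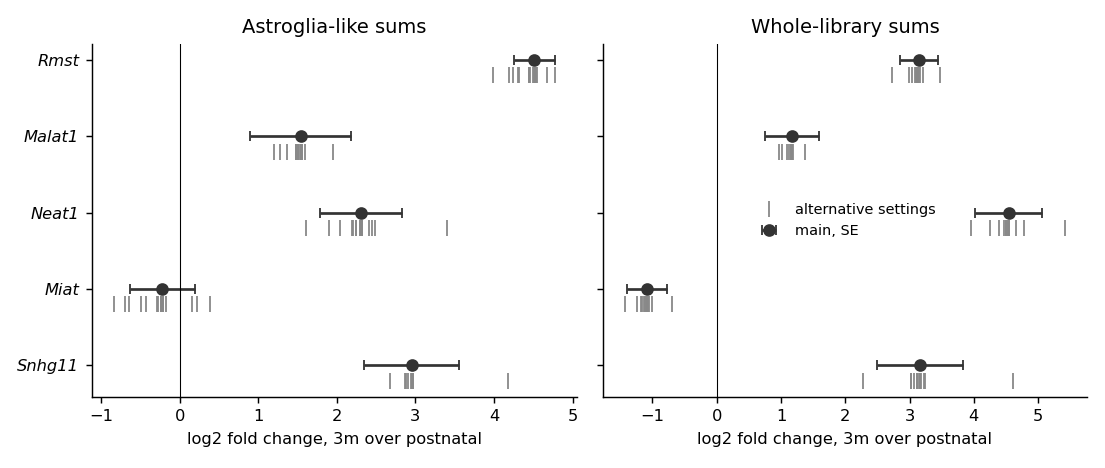
Log2 fold change of 3m over postnatal for the 5 RNAs in astroglia-like sums (left) and whole-library sums (right). Points are the fitted values with their SE and grey ticks are the alternative settings. Rmst, Malat1, Neat1 and Snhg11 stay above 0 under every setting that could be fitted, and Miat lies on both sides of 0 in astroglia-like sums.

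The proteins and transcripts that work with these RNAs were then examined in the astroglia-like sums, where 26.3% of 11832 genes were called, meaning an adjusted p in edgeR's quasi-likelihood test that did not exceed 0.05 together with a log2 fold change of 1 or more in either direction. Of the called genes, 1734 were higher and 1374 lower at 3m, and without a scaling factor, which shifted the median of all genes by −0.28 on the log2 scale, the split was 1267 to 2172. Of 15 paraspeckle protein genes, 3 were lower and 0 higher at 3m. These were Sfpq (log2 fold change −1.02, SE 0.18, adjusted p = 0.00754), the polyadenylation factor Nudt21 (−1.10, SE 0.17, adjusted p = 0.00467) and Hnrnpa1 (−1.46, SE 0.23, adjusted p = 0.00514), and the median of the list was −0.43 against 0.0026 over all genes tested. Neat1, the RNA that these proteins gather on, had a positive log2 fold change, but it had been chosen with that value known. With 3 of 15 genes called in either direction, beside 26.3% of all genes tested, no relation between the list and Neat1 is read. The calls of Sfpq and Nudt21 were lost without postnatal replicate 2 and, like that of Hnrnpa1, without either 3m replicate. Over all 17 alternatives the log2 fold change ran from −1.53 to −0.84 for Sfpq, −1.70 to −0.96 for Nudt21 and −1.75 to −1.15 for Hnrnpa1.

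Of 20 nuclear speckle and splicing protein genes tested, 1 was lower at 3m, the splicing factor Srsf7 (log2 fold change −1.18, SE 0.15, adjusted p = 0.00308), and 0 were higher, with a median of −0.42. Its call was lost without 3m replicate 2 (−1.09) and in cells with no oligodendrocyte marker UMI (−0.95), which left 95 and 64 astroglia-like cells in the 3m replicates. None of the 11 genes tested for RNase P and the end processing of Malat1 and Neat1 was called, with a median of 0.03.

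None of the 6 genes tested among partners and shared targets of Rmst was called. Sox2 was at 784 and 767 CPM in the postnatal replicates and 519 and 457 CPM at 3m (log2 fold change −0.39, SE 0.18, edgeR adjusted p = 0.135). Hnrnpa2b1, an RNA-binding protein that also binds Rmst, had a log2 fold change of −0.21 (SE 0.20). Among shared targets, the Notch target Hey2 had 0.26 (SE 0.20) and the interneuron factor Dlx1 −1.16 (SE 0.50, edgeR adjusted p = 0.111). Dlx1 was called under 5 of 17 alternatives, among them leaving out postnatal replicate 2 and leaving out cells with an oligodendrocyte or a neuron marker UMI, and its value was −0.64 without postnatal replicate 1. Sp8 and Neurog2, with 5 and 1 counts over the 4 libraries, were too low to test. Nedd1, the next gene of the list and 519.6 kb from Rmst on chromosome 10, had −0.07 (SE 0.25).

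Snhg20, a host transcript of a small nucleolar RNA, rose with age (27.1 and 31.7 CPM against 73.3 and 88.8 CPM, log2 fold change 1.74, SE 0.17, edgeR adjusted p = 0.00169), and its call held under all 17 alternatives. Snhg6 (−1.34, SE 0.32, adjusted p = 0.0191) and Epb41l4aos (−1.03, SE 0.23, adjusted p = 0.0154) were lower, and both calls were lost when postnatal replicate 2, either 3m replicate or the cells with an oligodendrocyte marker UMI were left out. These 3 were the called genes of the 7 host transcripts tested. Of 13 other named long noncoding RNAs tested, 4 were higher and 1 lower at 3m, with a median of 0.25. Lncpint, a transcript induced by p53, rose most (2.68 and 1.63 CPM against 27.5 and 29.0 CPM, log2 fold change 4.06, SE 0.33, edgeR adjusted p = 0.00108). Gm26917 (1.99, SE 0.16, adjusted p = 0.00109) and the X-linked Ftx (1.22, SE 0.33, adjusted p = 0.0291) were also higher, as was the X-linked Jpx (1.14, SE 0.24, adjusted p = 0.0133), which the rule did not name and which was chosen after its values were seen, and Ftx was lost without a scaling factor, in DESeq2 and without either 3m replicate. H19, an imprinted fetal RNA, had 148 UMIs in the postnatal sums and 0 at 3m, at least 8.60-fold lower when 0 was set to 3 counts per library (edgeR adjusted p = 0.00651).

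Genes known from astrocytes of the telencephalon, to which the striatum belongs, and of other regions served as a check of origin. Of 6 telencephalic genes 2 were higher at 3m, Crym, a thyroid hormone-binding protein (log2 fold change 3.20, SE 0.25, edgeR adjusted p = 0.00107), and Fezf2 (1.04, SE 0.23, adjusted p = 0.0141), the latter lost under 8 of 17 alternatives, among them leaving out postnatal replicate 2 or either 3m replicate. Of 7 non-telencephalic genes tested, Itih3 was higher (2.05, SE 0.44, adjusted p = 0.0132) and the midbrain factor Otx2 lower (−2.52, SE 0.46, adjusted p = 0.00835), and both calls were lost without 3m replicate 2, that of Itih3 also without the cells with an oligodendrocyte marker UMI. Over all 17 alternatives the log2 fold change ran from 1.30 to 2.86 for Itih3 and from −8.25 to −2.05 for Otx2.

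In whole-library sums, where 29.1% of 14288 genes were called, 2 of the 15 paraspeckle genes were lower and 0 higher at 3m, and 2 of the 6 genes tested of the Rmst list were lower. Between oligodendrocyte-like and astroglia-like sums at 3m, where 43.8% of 11665 genes were called, 1 of 15 paraspeckle genes was higher and 0 lower in oligodendrocyte-like cells. Neat1 stood far higher there, and no relation to the list is read. Of the Rmst list 4 of 6 genes tested were lower in oligodendrocyte-like cells, as were 6 of 6 telencephalic genes and 2963 of the 11665 genes tested. The telencephalic list was made of astrocyte genes, so its direction between these classes followed from its choice.

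A further comparison used values that had not served to pick the genes. Astroglia-like cells at 3m were thinned to 2000 UMIs each and divided by whether they held a UMI of a given member, and the counts of all other genes were summed on either side within each library. For Neat1, 60 cells with and 223 without a UMI were compared in 3m replicate 1, and 42 and 220 in 3m replicate 2. Malat1 was higher in the cells with Neat1, at 171018 against 118767 CPM in 3m replicate 1 and 172622 against 119445 CPM in 3m replicate 2 (log2 fold change 0.57, SE 0.08, edgeR adjusted p = 0.0197). Xist was higher too (0.75, SE 0.09, adjusted p = 0.0197), as was Gm42418, a locus that holds ribosomal RNA sequence (0.55, SE 0.08, adjusted p = 0.0396), and Crym was lower (−0.95, SE 0.14, adjusted p = 0.0259). These 4 were the genes with an adjusted p of at most 0.05, 0.0916% of the 4365 tested, and each went the same way in both libraries. None of them reached the fold limit, so 0 genes were called (0%), although 534 had an unadjusted p under 0.05 and DESeq2 called 1, Crym (log2 fold change −1.06, DESeq2 adjusted p = 0.0122). In DESeq2 the adjusted p was 0.683 for Xist and 0.355 for Gm42418. After thinning to 1000 UMIs Crym was at −0.44 with an edgeR adjusted p of 0.449, and without the replicate block Gm42418 had an adjusted p of 0.143 in the same test.

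The comparison was repeated without the Malat1-poor cells. Leaving them out took the side without Neat1 from 223 and 220 cells to 209 and 186. The side with Neat1 went from 60 and 42 cells to 59 and 42, so the Malat1-poor cells lowered Malat1 mainly on the side without Neat1. Malat1 was then higher in cells with Neat1, by 0.41 on the log2 scale (edgeR adjusted p = 0.0350), whereas after thinning to 1000 UMIs it was 0.63 with an adjusted p of 0.199 in the same test. Without the Malat1-poor cells 13 genes were called. In the sums of all cells, Ptgds, Apod and Dcn among them were higher with Neat1 in 3m replicate 1 but lower in 3m replicate 2. Ptgds was at 851 against 67.3 CPM in 3m replicate 1 and at 23.8 against 114 CPM in 3m replicate 2. The other called genes went the same way in both libraries. Rmst did not pass the test in the split by Neat1 (log2 fold change 0.34, SE 0.28, edgeR adjusted p = 0.673).

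For Rmst, 59 cells with and 224 without a UMI were compared in 3m replicate 1, and 87 and 175 in 3m replicate 2. No gene was called among the 3974 tested (0%), with 354 at an unadjusted p under 0.05 in edgeR and 0 called by DESeq2. Malat1 was 0.44 higher on the log2 scale in cells with Rmst (SE 0.13, edgeR adjusted p = 0.347). That value was 0.49 with an adjusted p of 2.11e-14 after thinning to 1000 UMIs, and 0.22 with an adjusted p of 0.170 without Malat1-poor cells, so its adjusted p depended on these settings, and it stayed under the fold limit in each. Neat1 was 0.18 higher (SE 0.29, edgeR adjusted p = 0.865). In a simulation of the split by Rmst over 3974 genes, with the same preset dispersion for every gene, edgeR found 62 of 100 genes with a 4-fold change. It found 12 of 100 with a 2-fold change. For the split by Neat1 over 4365 genes it found 45 of 100 and 6 of 100. Too few cells held a thinned UMI of Miat or Snhg11 for such a split.

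The genes whose levels followed each RNA most closely were sought over the 15 sums of a library and class with at least 20 cells, among 7385 genes with a mean of at least 20 CPM. The sums of a library share its depth and preparation, so the correlations of log2(CPM + 1) are descriptions. Rmst was followed most closely by Grin2c, an NMDA receptor subunit (Pearson's r = 0.95), 2900052N01Rik, Ephx2, Wasf3 and Nwd1. Genes that followed Miat closely included Ccnh (r = 0.95), Rimklb, Xylt1 and Apba2. For Neat1 the genes were Tmbim1 (r = 0.87), Sft2d1, Surf1, Mettl7a1 and Mobp, the last of which is a myelin gene. For Malat1 they were Emc7 (r = 0.90), Hibadh, AI480526, Ogt and Atraid, and for Snhg11 they were Lrrtm3 (r = 0.89), Os9, Cntn1, Nav3 and Csmd3. Among the RNAs themselves the highest value was between Rmst and Malat1 (r = 0.59) and the lowest between Neat1 and Miat (r = −0.37).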

How the data were processed

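Single-cell libraries were made with the 10x Chromium 3′ v3.1 kit. The deposited values are UMI counts that the authors did not normalise, 1 row per gene symbol and 1 column per barcode, and the 12 labelled samples were runs of 4 libraries, already merged. The submitters' processing notes name Cell Ranger, mm10 and Seurat 3.1.1. The methods of the study state male mice, although all libraries but postnatal replicate 2 held only 2 or 3 Y-linked UMIs and Xist was present in all. They also state alignment to mm10 and counting in Cell Ranger, and merging in Seurat. Their limits on mitochondrial UMIs and genes differ from those used here only for cells exactly at a limit, which they kept.

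Cells with at least 10% mitochondrial UMIs or at most 500 genes were removed. A cell was classed by the mean of ln(1 + UMIs per 10000) over marker genes, where at least 3 markers had a UMI and the mean was 0.25 above the next class. No doublet caller was run. Cells were not treated as replicates. Counts were summed per library and class and fitted across all genes in edgeR 4.0.16 (R 4.3.3) by its quasi-likelihood test, with TMM factors, filterByExpr and library as a block for comparisons within a library. Called genes had a p, adjusted after Benjamini and Hochberg, that did not exceed 0.05 and a log2 fold change of 1 or more in either direction, as in the bulk analyses of the study. DESeq2 1.42.0 served as a second tool after removal of genes that stayed under 10 normalised counts in every sum. SE comes from the fit, and CPM refers to 1000000 UMIs of the summed cells. Intervals are 95% exact Poisson or Clopper-Pearson intervals, 0 counts were given a limit of 3 counts, and both cover counting error only. With 2 libraries per age an exact permutation test cannot go below p = 0.333.

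The fits were tested on simulated counts, in which every gene had the same dispersion, set in advance and not estimated from these libraries. The spread between the real libraries may be larger, so the figures hold for that setting only. For the ages in astroglia-like cells, over 11832 genes, edgeR found 97 of 100 genes with a 4-fold change, 39 of 100 with a 2-fold change and 7 unchanged genes.

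The 5 RNAs and the gene lists were chosen with earlier results of these data known. Named genes were the 5 RNAs, the up to 4 called genes of each list with the largest change, all genes of the Rmst list, called genes of the splits, and the 5 genes most correlated with each RNA. Some values that this rule names are not reported here. Genes of the splits below the fold limit were named after their values were seen. Of the lists, 11 of 18 host transcripts and 8 of 25 other noncoding RNAs had no row under their symbols. Leaving out Malat1-poor cells and using DESeq2 for the splits were added after the data had been seen. Sequences are from GENCODE M21 and RefSeq, both on GRCm38. Numbered replicates showed little shared deviation (r = 0.101 across 6220 genes), so the numbers were not used as pairs between ages. Both replicate 1 libraries had 4 runs and both replicate 2 libraries 2 runs, the latter sharing 95 barcodes. Whether equal numbers mark a shared batch was not tested beyond the replicate block.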

Additional observations from a re-analysis of the deposited data

Results flagged for a closer look

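Cells that no marker class took in were outside the comparisons. In these, Snhg11 reached 33.9 CPM in 3m replicate 1 (13 UMIs in 5 of 36 cells) and 137 CPM in 3m replicate 2 (29 UMIs in 8 of 34 cells), while no UMI was found in either postnatal library, which allows up to 5.86 and 4.83 CPM. They stood out because both 3m values lay above these limits. Of the cells with Snhg11, 1 of 5 and 1 of 8 held a neuron marker UMI. Barcodes removed by the filters also held Snhg11 at 3m, with 23.5 CPM in 3m replicate 1 and 80.4 CPM in 3m replicate 2.

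Postnatal replicate 2 and 3m replicate 2 shared 95 cell barcodes, a number that stood out because no other pair of libraries shared more than 2. The smaller member of a shared pair was an astroglia-like cell in 7 cases in 3m replicate 2 and in 0 cases in the other libraries.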

How the results depend on the processing

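Rmst, Malat1, Neat1 and Snhg11 kept a positive log2 fold change between ages in astroglia-like cells under every alternative that could be fitted, and no called value changed sign. Leaving out 1 library gave 4.19 to 4.77 for Rmst, 1.20 to 1.95 for Malat1 and 1.60 to 3.40 for Neat1. The sign for Miat was not stable, with 0.38 without cells holding an oligodendrocyte marker UMI and −0.83 without cells holding a neuron marker UMI. Rmst was 3.99 without cells holding an oligodendrocyte marker UMI. Snhg11 was 2.67 without a scaling factor and 4.18 with a gate without 4 adult astroglial markers, and it was too low to be fitted when a library was left out, at a class margin of 0.5 and without cells holding marker UMIs of oligodendrocytes or neurons.

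The number of called genes between ages in astroglia-like cells, 3108, ran from 1223 (without 3m replicate 2) through 1503 (without 3m replicate 1) to 3934 (without postnatal replicate 1), and was 1820 without cells holding an oligodendrocyte marker UMI. The splits, with 0 called, gave 2 genes for Rmst without the replicate block, 10 after thinning to 1000 UMIs and 5 without Malat1-poor cells, and for Neat1 1, 9 and 13 under the same settings and 1 in DESeq2. The cause was not tested. With replicate numbers as a block between ages, the astroglia-like sums gave 3191 called genes and the whole libraries 4255, and the block gave 4.52 for Rmst and 2.49 for Neat1.

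The thinned detection of Rmst, 24.5 points higher at 3m, was 12.7 at 1000 UMIs and 46.9 without thinning. Without thinning the difference was 21.3 for Neat1 and −9.88 for Miat. For Snhg11 it was 0.707 to 0.763 with 1 library left out, 0.331 at 1000 UMIs, 0.147 without thinning and 0.373 with a class margin of 0.5. With Malat1 and mitochondrial UMIs out of the total, mean CPM at 3m was 227 for Rmst, 159766 for Malat1, 154 for Neat1 and 3.96 for Snhg11. As a mean over cells it was 116323 for Malat1 and 3.96 for Snhg11. The comparison of classes at 3m could not be tested with 1 library, and the splits without cells holding an oligodendrocyte marker UMI had under 20 cells on a side and were not run.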
